A study of Mus musculus with 14 samples.

Results

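The 7 mouse genes for inhibitors of cyclin-dependent kinases, Cdkn1a, Cdkn1b, Cdkn1c, Cdkn2a, Cdkn2b, Cdkn2c and Cdkn2d, were taken by name, as known targets of Smarcb1 and of Polycomb, from 21938 protein-coding genes and 55413 genes in all. Around each gene, the peaks and islands of 5 antibodies in control (ctrl) and after Smarcb1 knockdown (kd) were counted and placed in a window from 10 kb before the start of transcription (TSS) up to the gene end. All 7 genes were found in the annotation, and their windows were 12712 to 30183 bp long.

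Chromatin came from 81K1 cells, mouse embryonic stem cells made from OG2 cells, with an shRNA against Smarcb1 at the Rosa26 locus that doxycycline switches on. Control cells were left without doxycycline and kd cells received 1 µg/ml doxycycline for 72 h, so that both groups carry the same shRNA insertion and come from a single clone. For each of Smarca4, Ezh2, H3K27me3, H3K27ac and H3K4me3 there was 1 library per condition, and 4 input samples completed the 14 samples. A single library has no spread between replicates, so all comparisons between conditions are descriptions of these libraries without a test, and more cells with a region cannot be told apart from more signal in each cell.

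The inhibitors bind cyclin-dependent kinases (Cdks) or their cyclin complexes and hold back the cell cycle before DNA is replicated. The Cip/Kip proteins (p21, p27 and p57, from Cdkn1a, Cdkn1b and Cdkn1c) bind cyclin and Cdk together, whereas the INK4 proteins (from Cdkn2a to Cdkn2d) bind Cdk4 and Cdk6 and keep them from the D-type cyclins. Smarcb1 is a core subunit of the BAF chromatin remodelling complex, whose ATPase is Smarca4 (Brg1). Ezh2 is the catalytic subunit of the Polycomb complex PRC2 and writes H3K27me3, a mark of silenced genes that is antagonised by BAF, while H3K4me3 marks promoters and H3K27ac marks active promoters and enhancers. A promoter with both H3K4me3 and H3K27me3 is called bivalent, a state common at developmental genes in stem cells.

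The lists held between 5364 regions (Ezh2 kd) and 79014 regions (Smarca4 ctrl), and they give no read counts. The methods give an approximate number of reads per sample for Ezh2, H3K27ac and H3K4me3, but the depth of each single library is unknown. Smarca4 and Ezh2 peaks carry the score of the caller MACS2, and islands of the histone marks carry the p-value of the caller SICER. Neither is scaled between libraries, so the strength of a region is given below as the share of its own list that is at least as strong, where a low share means a strong region. A region with a partner in the other condition (an overlap of 1 bp or more) was called shared, and a region without one ctrl-only or kd-only. Within 1 kb of the TSS, 5 of 6 stem cell marker genes had an H3K4me3 island in both conditions, the exception being Esrrb, and all 9 markers of other lineages had an H3K27me3 island in both conditions. H3K27me3 also lay at 2 of the stem cell markers in control (Klf4 and Esrrb) and 1 after kd (Esrrb), and H3K4me3 at 5 of the markers of other lineages in control and 6 after kd. In the list of H3K27ac, 4 of the stem cell markers in control and 5 after kd had an island there, against 0 and 1 (Sox1) of the markers of other lineages. Smarcb1 itself is lowered at its mRNA, which these lists do not measure.

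All 7 inhibitor genes had Smarca4 peaks and H3K4me3 islands in control and after kd. Among all protein-coding genes the shares were 73.3% in control and 74.9% after kd for Smarca4, and 67.3% and 72.5% for H3K4me3. Smarca4 and H3K4me3 regions lay within 1 kb of the TSS of all 7 genes in both conditions, against 62.5% and 63.5% of protein-coding genes for Smarca4 and 56.6% and 60.4% for H3K4me3. No inhibitor gene had either in 1 condition alone, and after kd alone 3.92% of protein-coding genes had Smarca4 and 6.17% H3K4me3. The unit counted is the gene, and 2 of the genes, Cdkn2a and Cdkn2b, are neighbours that share regions.

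H3K27me3 islands lay in the windows of 6 genes in both conditions, all except Cdkn2d, against 51.2% of all protein-coding genes in control and 42.4% after kd. Ezh2 peaks were found at 3 genes in control (Cdkn1c, Cdkn2a and Cdkn2c) and at 4 after kd, with Cdkn2b added, against 14.5% and 16.5% of protein-coding genes. A region in the kd list alone, as at Cdkn2b, was present at 6.43% of protein-coding genes for Ezh2. H3K27ac islands were found at 3 genes in control (Cdkn1a, Cdkn2c and Cdkn2d) and at 5 after kd, with Cdkn1b and Cdkn2b added, against 41% and 57.6%, and 20.4% of protein-coding genes had H3K27ac after kd alone. No inhibitor gene had a region of any antibody in control alone, which among protein-coding genes was the case for 2.39% (Smarca4), 4.41% (Ezh2), 12.4% (H3K27me3), 3.76% (H3K27ac) and 0.962% (H3K4me3).

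**Figure D1:**
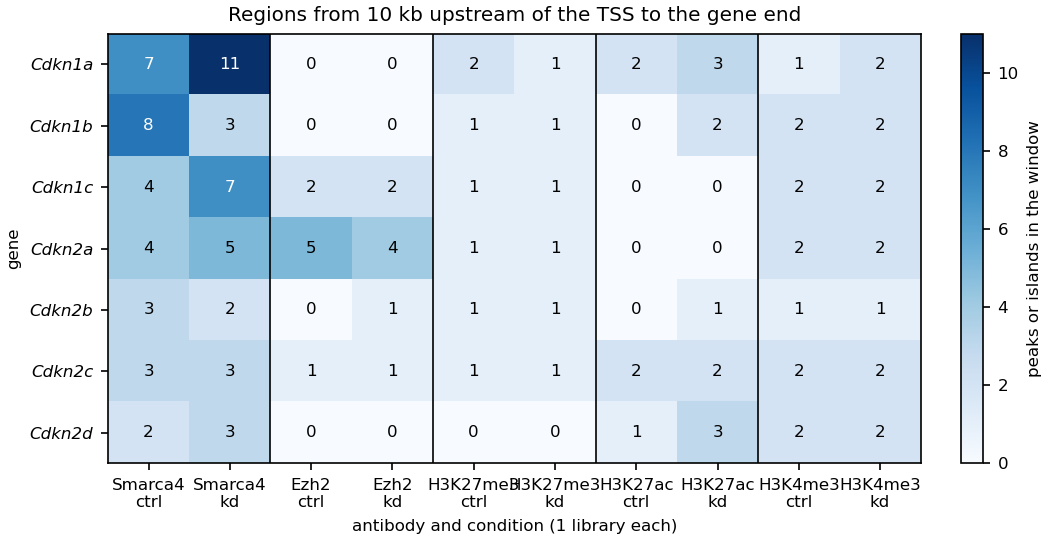
Number of peaks (Smarca4, Ezh2) or islands (H3K27me3, H3K27ac, H3K4me3) in the window of each inhibitor gene (rows) in each of the 10 lists (columns), with darker cells for more regions. Smarca4 peaks number 2 to 8 per gene in control and 2 to 11 after kd, and the Ezh2 columns are empty for Cdkn1a, Cdkn1b and Cdkn2d.

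Longer windows hold more regions, so the same shares were taken over the 9674 protein-coding genes whose windows lie within the length range of the inhibitor genes. They were 65.7% in control and 67.5% after kd for Smarca4, 9.42% and 11.4% for Ezh2, and 46.6% and 35.9% for H3K27me3. For H3K27ac they were 29.7% and 49.5%, and for H3K4me3 58.8% and 65%. The counts at the 7 inhibitor genes were above these shares for each antibody and condition, and were not tested. For H3K27ac in control the count, 3 of 7 genes, was close to the 41% of all protein-coding genes. It was 2 of 7 without regions at least 50% repeat-masked, and also 2 with the gene region of the study, which begins 1 kb upstream of the TSS.

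**Figure D2:**
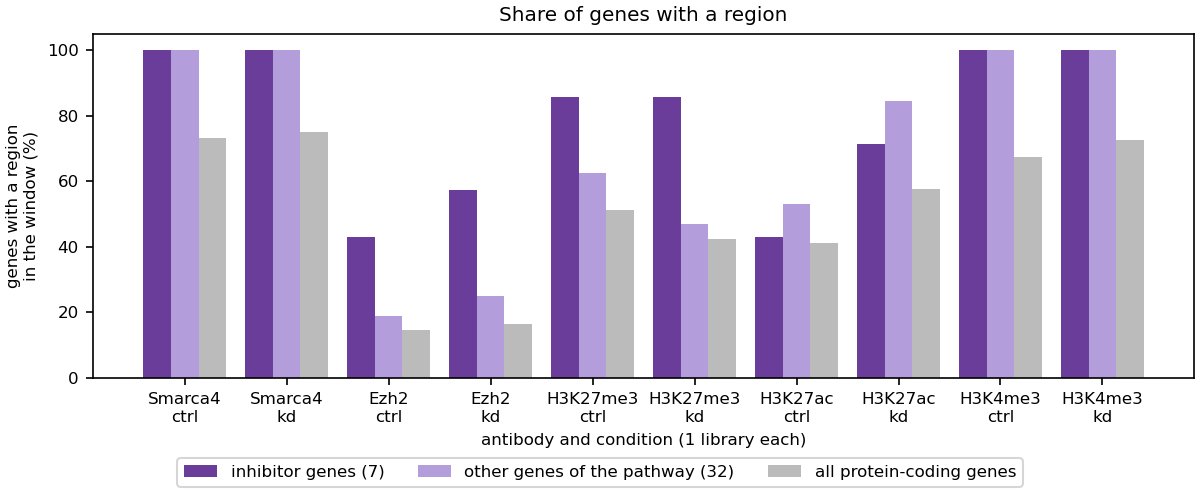
Percentage of genes with at least 1 region in the window, for the 7 inhibitor genes, 32 other genes of the same pathway and all protein-coding genes, in each of the 10 lists (1 library each). The bars of the inhibitor genes stand above those of all protein-coding genes in each list, but only slightly for H3K27ac in control (3 of 7 genes against 41%). For H3K27ac the inhibitor bars stand below those of the pathway genes.

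Counting each region once, the 7 windows held 31 Smarca4 peaks in control and 34 after kd, of which 10 were ctrl-only and 10 kd-only. In the whole lists, 43.9% of control peaks and 35.6% of kd peaks of Smarca4 were without a partner. Ezh2 had 8 peaks in each condition, 1 of them ctrl-only and 2 kd-only, against 51.2% and 49.4% in the whole lists. H3K27me3 had 6 islands in control and 5 after kd, with 1 ctrl-only and 0 kd-only, against 44.1% and 28.9%. H3K27ac had 5 islands in control, 0 of them ctrl-only, and 11 after kd, 5 of them kd-only, against 23.5% and 40.1%. H3K4me3 had 12 and 13 islands, 1 of them ctrl-only and 1 kd-only, against 8.15% and 29.8%.

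At the TSS (1 kb on either side), 6 inhibitor genes, all but Cdkn2d, carried both H3K4me3 and H3K27me3 islands in control. After kd there were 5 such genes, since no H3K27me3 island was called near the TSS of Cdkn1a. For H3K27me3 at the TSS the shares of protein-coding genes were 34.9% in control, 29.2% after kd and 8.15% in control alone. Of all protein-coding genes, 21.2% in control and 21.6% after kd carried both marks. An Ezh2 peak was present as well at Cdkn1c, Cdkn2a and Cdkn2c in both conditions, against 6.2% and 12% of protein-coding genes with all of these regions and 7.13% and 12.6% with an Ezh2 peak. H3K27ac lay within 1 kb of the TSS of 2 inhibitor genes in control (Cdkn1a and Cdkn2d) and of 3 after kd, with Cdkn1b added, against 16% and 30.9% of protein-coding genes, and 16.8% after kd alone.

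Among the Cip/Kip genes, Cdkn1a encodes p21, a target of p53 and the inhibitor induced by DNA damage. It lies on the plus strand at chr17:29090976-29100727 (GRCm38). At Cdkn1a, H3K27me3 covered 10600 bp of the window in control and 1200 bp after kd, or 53.7% and 6.08% of its length. In control, a 6200 bp island (with 17.1% of the list as strong) ran from 1375 bp upstream of the TSS to 4824 bp downstream, over the annotated TSS and the second coding start at 2793 bp. In its place the kd list held a 1200 bp island at chr17:29094001-29095200, from 3025 to 4224 bp downstream of the TSS, downstream of these starts, with 57.2% of the list as strong. Its p-value was 1.11e-20, just short of a stricter threshold (-log10 p of at least 20), under which Cdkn1a had H3K27me3 in control alone. A second control island of 4400 bp, from 9775 to 5376 bp upstream, had no partner after kd and was weak in its list, with 79.1% of islands as strong.

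The length of H3K27me3 after kd at Cdkn1a was 11.3% of that in control. Of 8507 protein-coding genes with H3K27me3 in both lists, 16.9% had less than 50% of the control length, and the median ratio of kd to control was 0.876. Cdkn1a was the only one of the 6 inhibitor genes with H3K27me3 below 50%, and the windows of Cdkn1c and Cdkn2a lay inside longer islands in both conditions, so that their covered length could not differ. This measure, and the like measures of covered length for the other antibodies below, were chosen after the values had been seen.

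H3K27ac was called over the Cdkn1a TSS in both conditions. In control 1 island of 9400 bp covered the TSS, with 66.1% of the list as strong. After kd 2 islands overlapped it, one of 6600 bp over the TSS, with 5.06% of the list as strong, and one of 2600 bp from 5375 to 2776 bp upstream, with 67.5% as strong. H3K27ac covered 12025 bp of the window in control and 13025 bp after kd. Upstream, an island over the start of Trp53cor1 (lincRNA-p21, a non-coding RNA transcribed away from Cdkn1a) crossed the window edge. It was 8600 bp long in control and 9400 bp after kd, and the share of the list as strong was 26.4% and 0.853%. The position in the list depends on the other islands of that list, which held 39091 islands in control and 51100 after kd. H3K4me3 had an 8200 bp island from 575 bp upstream to 7624 bp downstream in control, with 32.4% of the list as strong. After kd a 7800 bp island began 225 bp downstream of the TSS, with 13.8% of the list as strong. A second kd island of 13000 bp covered the Trp53cor1 start and reached into the window, overlapping a control island that lay outside it.

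Smarca4 had 7 peaks in the Cdkn1a window in control and 11 after kd, with 2 ctrl-only and 4 kd-only. The strongest Smarca4 peak at any inhibitor gene lay over the second coding start of Cdkn1a. It was 3045 bp long in control with a score of 554, equalled or exceeded by 0.406% of the list, and 2133 bp after kd with a score of 389, equalled or exceeded by 2.27%. The ctrl-only peaks lay in the gene body, from 5413 to 6368 bp and from 6951 to 7702 bp downstream of the TSS, the latter beside the third coding start at 6924 bp, where Smarca4 covered 1197 bp within 1 kb in control and 0 bp after kd, and the kd-only peaks lay between 6173 bp upstream and 834 bp downstream. At least 4 kd-only Smarca4 peaks, a number set after that at Cdkn1a had been seen, were present in 5.11% of protein-coding windows. No Ezh2 peak was called at Cdkn1a in either condition.

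Promoters of 2 of the 3 coding starts of Cdkn1a, the upstream and the second, are shown because the marks differ between them. The sequences, from the RefSeq table of GRCm38.p6, hold 250 bases before and 50 bases from the start on, read in the direction of transcription, and capitals mark matches of the GC box GGGCGG or its reverse complement CCGCCC.
Cdkn1a, upstream start, chr17:29090729-29091028: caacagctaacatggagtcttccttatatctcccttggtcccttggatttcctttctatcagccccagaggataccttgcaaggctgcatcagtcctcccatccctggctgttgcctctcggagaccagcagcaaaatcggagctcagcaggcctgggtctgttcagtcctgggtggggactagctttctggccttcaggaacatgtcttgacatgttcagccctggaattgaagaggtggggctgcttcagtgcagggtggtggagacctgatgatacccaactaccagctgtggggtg
Cdkn1a, second start, chr17:29093519-29093818: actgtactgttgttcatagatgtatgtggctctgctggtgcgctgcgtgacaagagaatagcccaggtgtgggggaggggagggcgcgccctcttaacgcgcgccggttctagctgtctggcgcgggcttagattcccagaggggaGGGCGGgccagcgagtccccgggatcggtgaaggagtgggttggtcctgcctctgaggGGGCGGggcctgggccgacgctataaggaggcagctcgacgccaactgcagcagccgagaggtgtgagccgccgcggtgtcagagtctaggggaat
The upstream promoter holds 2 CpG dinucleotides and no GC box, and the second one holds 23 CpG and 2 GC boxes, against a median of 7 CpG in 32841 RefSeq promoters of the same length. All 300 bases of both promoters were covered by H3K27me3 in control and 0 bases after kd, and both were covered by H3K27ac in either condition. H3K4me3 covered both promoters in control and, after kd, the second one alone.

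Cdkn1b encodes p27, which holds cells in a resting state and is removed by Skp2 and Cks1b when cells enter the cycle. It lies on the plus strand at chr6:134920401-134925513. Its H3K27me3 island was 15200 bp long in control, from 13200 bp upstream to 1999 bp downstream of the TSS. After kd it was 7400 bp long and lay from 8200 to 801 bp upstream, so that it ended before the TSS. The shorter island ranked higher in its list, with 26.6% of the list as strong in control and 16.4% after kd. Within 1 kb of the TSS, H3K27me3 covered 2001 bp in control and 200 bp after kd at Cdkn1b, and 2001 bp and 0 bp at Cdkn1a. Of 5325 protein-coding genes with this stretch fully covered in control, 14.1% had at most 200 bp of it covered after kd. Among the 6 inhibitor genes fully covered in control, Cdkn1a and Cdkn1b were such genes, and Cdkn1c, Cdkn2a, Cdkn2b and Cdkn2c were covered in full in both conditions. The limit of 200 bp was chosen after these values had been seen.

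The H3K27ac list had no island at Cdkn1b in control and 2 after kd. A 2400 bp island covered the TSS, from 1800 bp upstream to 599 bp downstream, and a 2600 bp island lay from 5400 to 2801 bp upstream. Both were weak in their list, with 78.1% and 79.5% of islands as strong, and neither passed the stricter threshold for H3K27ac (-log10 p of at least 10). Smarca4 had 8 peaks at Cdkn1b in control and 3 after kd. The 5 ctrl-only peaks lay between 6135 and 870 bp upstream and had scores of 27 to 57, with 59.2% to 94.7% of the list as strong. At least 5 ctrl-only Smarca4 peaks, a number set after that at Cdkn1b had been seen, were present in 7.09% of protein-coding windows. The peak over the TSS was 1893 bp long in control (score 366, with 2.43% of the list as strong) and 1995 bp after kd (score 284, with 6.2% as strong). H3K4me3 lay over the TSS in a 4000 bp island in control and a 3200 bp island after kd, and no Ezh2 peak was called.

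The Cdkn1b promoter is shown because H3K27me3 and H3K27ac were called over it in different conditions: all 300 bases were covered by H3K27me3 in control alone and by H3K27ac after kd alone. Capitals again mark the GC box.
Cdkn1b, chr6:134920151-134920450: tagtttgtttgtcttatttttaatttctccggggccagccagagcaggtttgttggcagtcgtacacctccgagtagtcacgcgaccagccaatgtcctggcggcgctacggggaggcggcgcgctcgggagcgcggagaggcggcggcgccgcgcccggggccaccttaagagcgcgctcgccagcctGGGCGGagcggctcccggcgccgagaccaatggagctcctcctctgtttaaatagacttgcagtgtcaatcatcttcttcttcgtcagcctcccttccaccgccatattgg
It holds 30 CpG and 1 GC box, and 89.4% of RefSeq promoters hold at most that many CpG.

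Cdkn1c encodes p57, an imprinted inhibitor expressed from the maternal allele in the embryo. It lies on the minus strand at chr7:143458339-143461050, and its window was covered by H3K27me3 from end to end in both conditions. The island was 207600 bp long in control and 207400 bp after kd, the second longest of 22909 islands and the longest of 18320. Besides Cdkn1c it overlapped Kcnq1, Phlda2 and Slc22a18, the genes of the imprinted domain around the non-coding RNA Kcnq1ot1, and 4 protein-coding genes in all. The lists do not separate the parental alleles.

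The strongest Ezh2 peaks of the inhibitor genes lay over the TSS of Cdkn1c. This peak was 2474 bp long in control with a score of 409 and 2737 bp after kd with a score of 871, with 2.68% and 2.72% of the lists as strong. A second Ezh2 peak at about 4 kb upstream was 330 bp long in control, compared with 750 bp after kd, and both H3K4me3 and Smarca4 had regions at the same place in both conditions. The TSS peak also lay over an antisense transcript, Gm44732, which starts inside Cdkn1c. H3K4me3 covered 3600 bp of the window in each condition, and no H3K27ac island was called. The H3K4me3 island over the TSS had 52% of the list as strong in control and 22.8% after kd. Smarca4 had 4 peaks in control and 7 after kd, with 1 ctrl-only and 3 kd-only, all 4 of these upstream of the TSS.

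**Figure D3:**
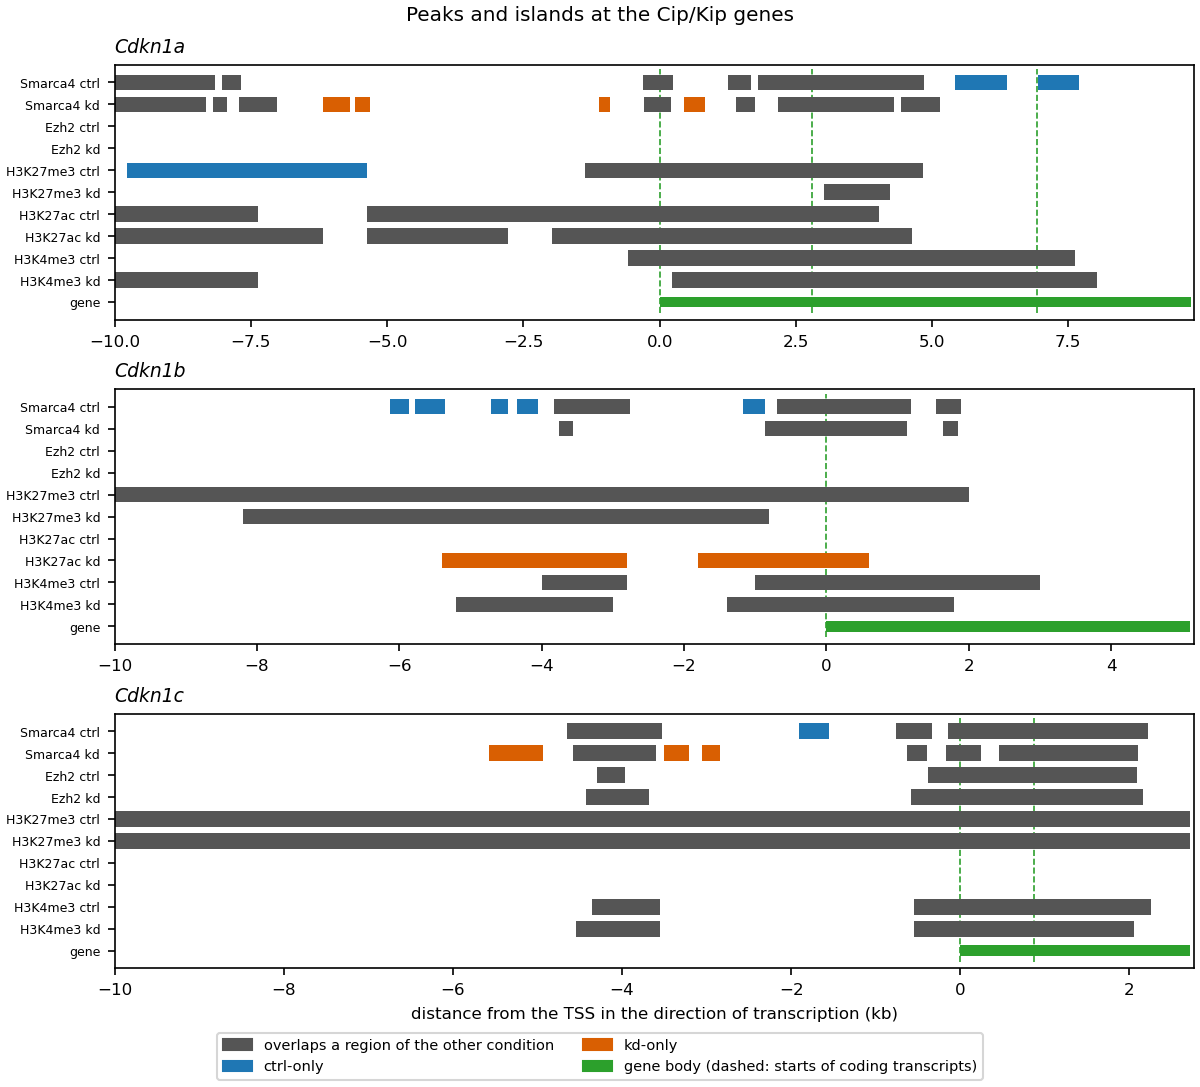
Peaks and islands at Cdkn1a, Cdkn1b and Cdkn1c by distance from the TSS in the direction of transcription (kb), 1 row per list, cut at the window edges. Grey regions overlap a region of the other condition, blue regions are ctrl-only, orange regions are kd-only, the green bar is the gene and dashed lines are starts of coding transcripts. The H3K27me3 rows of Cdkn1a and Cdkn1b are shorter after kd, and those of Cdkn1c fill the window in both conditions.

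Among the INK4 genes, Cdkn2a and Cdkn2b lie side by side on the minus strand of chromosome 4. Cdkn2a, at chr4:89274471-89294653, encodes Arf from an upstream start, a protein that frees p53 from Mdm2, and p16 (Ink4a) from a second start 12461 bp downstream. Cdkn2b, at chr4:89306299-89311039, encodes p15, the inhibitor known for its response to TGF-beta. A single H3K27me3 island covered both genes and the non-coding Gm12606, and was 50000 bp long in control and 53600 bp after kd. By width it ranked 176 of 22909 islands in control and 49 of 18320 after kd.

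Cdkn2a had 5 Ezh2 peaks in control and 4 after kd. The peak at the Arf start was 755 bp long in control (score 85, with 40.4% of the list as strong), upstream of the start, and 1657 bp long after kd (score 374, with 18.1% as strong), over the start. Directly over the Ink4a start an Ezh2 peak of 323 bp was called after kd alone, at chr4:89282047-89282369. It had a score of 52, with 83.7% of the list as strong. The kd list of H3K4me3 alone held a 1000 bp island over the same start (chr4:89281801-89282800, with 60.4% of the list as strong). Towards the gene end, Ezh2 peaks lay in both conditions at about 18 and 20 kb downstream. The ctrl-only Ezh2 peak of 336 bp, at 13392 bp, had 20.8% of the list as strong and 74.1% of its bases masked as repeats. It reached within 1 kb of the Ink4a start, where Ezh2 covered 70 bp in control and 323 bp after kd.

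Over the whole Cdkn2a window, Ezh2 peaks covered 2227 bp in control and 3872 bp after kd, 174% of the control length. At Cdkn1c the kd length was 124% of control and at Cdkn2c 122%. Of 2209 protein-coding genes with Ezh2 in both lists, the median ratio was 1.65, against 1.24 among these 3 genes, and 32.7% had more than 2 times the control length, which was the case for 0 of the 3. Over the whole lists the median Ezh2 peak was 354 bp wide in control and, after kd, 736 bp, so longer Ezh2 peaks after kd were a property of the whole list.

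Smarca4 peaks lay over both starts of Cdkn2a in control. After kd one lay over the Arf start, and a pair of peaks flanked the Ink4a start. The peak at the Arf start was 1633 bp long in control and 1519 bp after kd, with 11.6% and 17.6% of the lists as strong. H3K4me3 over the Arf start was 3800 bp long in control and 1800 bp after kd, with 42.7% and 13.8% of the lists as strong. A 1400 bp island from 9547 to 8148 bp upstream was ctrl-only. H3K27ac was not called in the Cdkn2a window in either condition. All 300 bases of both promoters of Cdkn2a were covered by H3K27me3 in both conditions. Ezh2 covered 0 bases of both in control and, after kd, 300 bases at the Arf start and 227 bases at the Ink4a start.
The sequences are shown because the promoters of this gene differ in CpG content and in H3K4me3, with GC boxes in capitals.
Cdkn2a, Arf start, chr4:89294570-89294869: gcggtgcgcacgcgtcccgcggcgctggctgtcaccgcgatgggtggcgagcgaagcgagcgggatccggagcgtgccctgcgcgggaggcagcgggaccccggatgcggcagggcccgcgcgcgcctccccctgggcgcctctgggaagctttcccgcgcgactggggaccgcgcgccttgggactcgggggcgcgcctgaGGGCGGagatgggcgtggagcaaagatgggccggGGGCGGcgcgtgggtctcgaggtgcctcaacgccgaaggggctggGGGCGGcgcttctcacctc
Cdkn2a, Ink4a start, chr4:89282143-89282442: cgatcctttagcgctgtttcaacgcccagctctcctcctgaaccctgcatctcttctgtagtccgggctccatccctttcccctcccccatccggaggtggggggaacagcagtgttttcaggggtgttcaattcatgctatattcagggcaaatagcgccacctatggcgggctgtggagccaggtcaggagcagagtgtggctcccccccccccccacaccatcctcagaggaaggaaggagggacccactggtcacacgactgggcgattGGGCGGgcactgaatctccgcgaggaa
The Arf promoter holds 45 CpG, more than the other 8 promoters of the inhibitor genes, with 3 GC boxes, and was covered by H3K4me3 in both conditions. The Ink4a promoter holds 12 CpG and 1 GC box and was covered by H3K4me3 after kd alone.

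Cdkn2b had no Ezh2 peak in control and 1 after kd, from 3745 to 4078 bp downstream of the TSS. It was 334 bp long with a score of 44, and 89.6% of the list was as strong, and it did not pass the stricter threshold of a score of 50. A ctrl-only Smarca4 peak of 403 bp lay at nearly the same place, from 3628 to 4030 bp, and a 600 bp H3K27ac island from 3039 to 3638 bp was kd-only (with 44.5% of the list as strong). Smarca4 over the TSS was 874 bp long in control (score 140) and 1013 bp after kd (score 201). A Smarca4 peak at about 2.7 kb upstream was 229 bp long with a score of 57 in control and 437 bp with a score of 226 after kd, and the share of the list as strong was 59.2% and 10.4%. H3K4me3 lay over the TSS in both conditions, in islands of 2000 and 1800 bp.

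Cdkn2c encodes p18 and lies on the minus strand at chr4:109660876-109667189. It was the only inhibitor gene with a region in all 10 lists, and all of its regions were shared between conditions. Its Ezh2 peak lay downstream of the TSS, from 636 to 1446 bp in control and from 655 to 1642 bp after kd, within H3K4me3 and H3K27me3 islands and overlapping a Smarca4 peak. The H3K27me3 island was 13800 bp long in control and 17200 bp after kd. H3K27ac islands lay only upstream, from 1412 bp on, and one of them, with a Smarca4 peak and an H3K4me3 island, lay over the start of the neighbouring Faf1 and crossed the window edge. H3K27ac was therefore not called at the Cdkn2c TSS in either condition.

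Cdkn2d encodes p19 (Ink4d) and lies on the minus strand at chr9:21288410-21291407. It was the only inhibitor gene without H3K27me3, and no Ezh2 peak was called there. An H3K27ac island ended 194 bp upstream of the TSS in both conditions, 1400 bp long in control and 1600 bp after kd, with 12.5% and 13.4% of the lists as strong. A further 2 H3K27ac islands after kd were kd-only, one of 3200 bp that covered the gene end and the start of the neighbouring Kri1 (with 94.6% of the list as strong) and one of 1200 bp at the window edge, within Ap1m2. Together, H3K27ac covered 1400 bp of the window in control and 4198 bp after kd, 300% of the control length, whereas 15% of 8165 protein-coding genes with H3K27ac in both lists had more than 2 times the control length. The island near the TSS had 72.9% of its bases masked as repeats in control and 70.4% after kd, and the island at the window edge 75.2%. Without regions at least 50% masked, Cdkn2d had H3K27ac after kd alone, so that no such ratio could be formed. Smarca4 had 2 peaks in control and 3 after kd, and covered 875 and 1888 bp. H3K4me3 lay over the TSS in islands of 3200 bp in control and 3000 bp after kd.

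**Figure D4:**
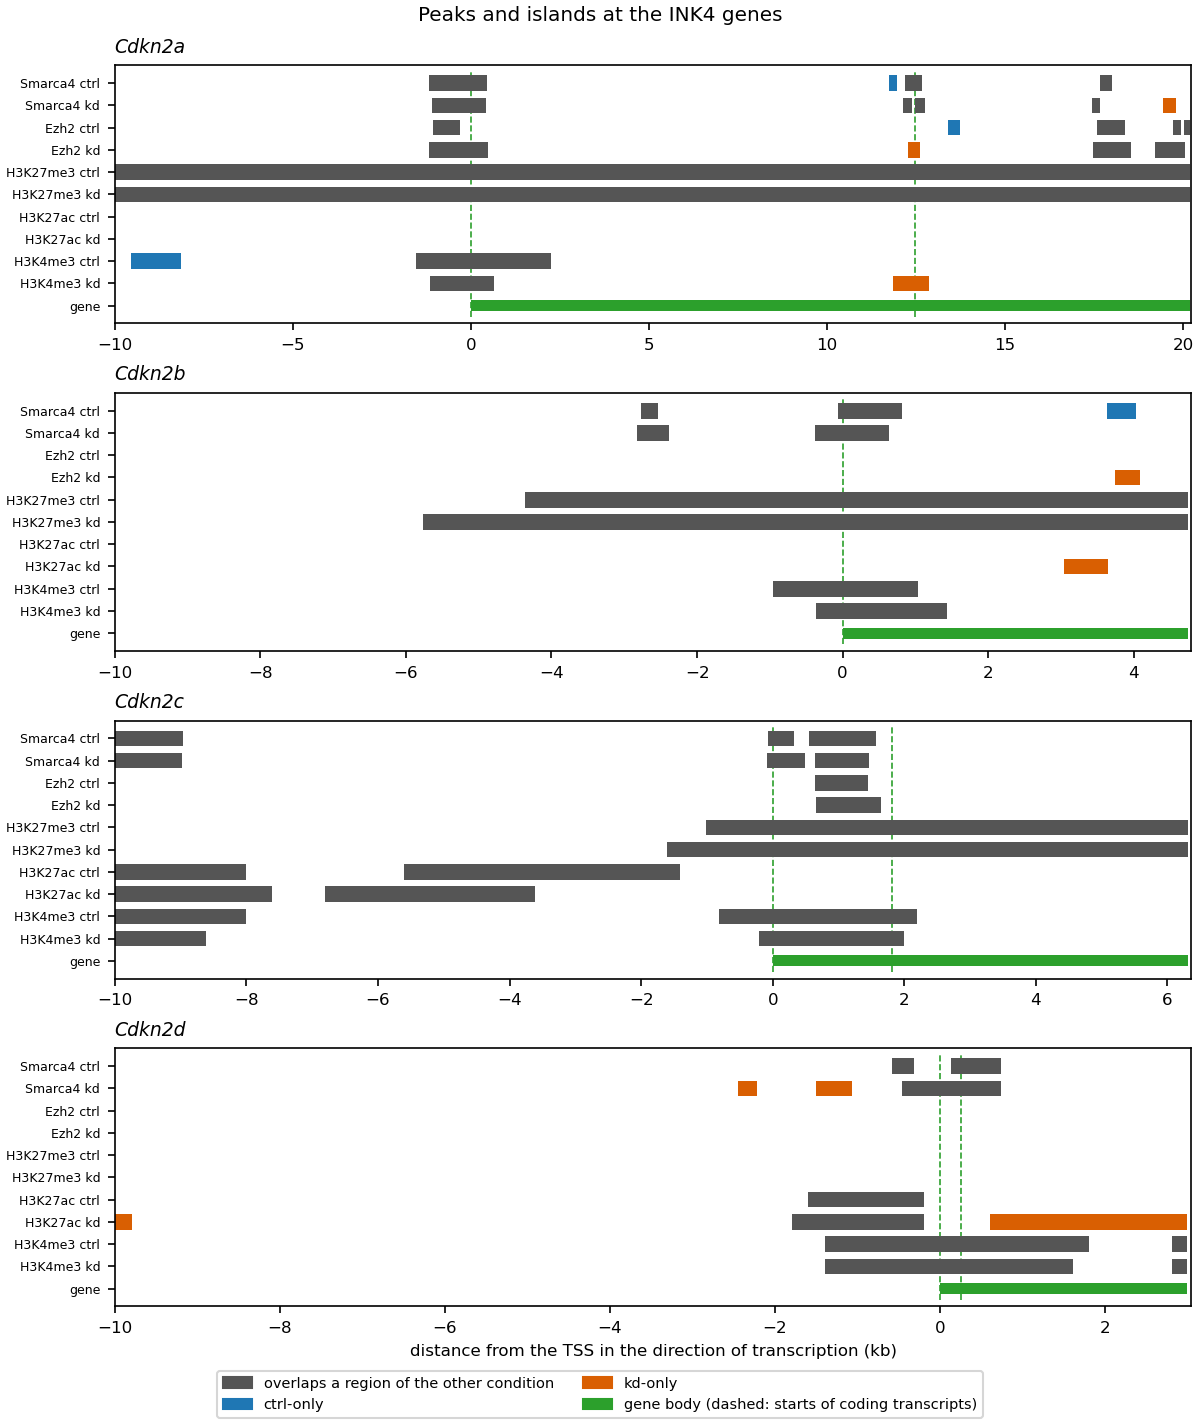
Peaks and islands at Cdkn2a, Cdkn2b, Cdkn2c and Cdkn2d by distance from the TSS in the direction of transcription (kb), drawn as for the Cip/Kip genes (grey overlaps the other condition, blue is ctrl-only, orange is kd-only, green is the gene, dashed lines are starts of coding transcripts). At the second start of Cdkn2a, kd-only Ezh2 and H3K4me3 regions lie over the dashed line, and the Ezh2 and H3K27me3 rows of Cdkn2d are empty.

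Across the 7 windows, each of the 16 Ezh2 peaks (8 per condition) lay inside an H3K27me3 island over 100% of its length, and none overlapped an H3K27ac island. Most of these peaks lay at Cdkn1c and Cdkn2a, whose windows were covered by H3K27me3 over 100% and held no H3K27ac island in either condition. For those peaks the outcome could not differ. The same shares over all Ezh2 peaks of the lists were not taken. Cdkn2b, whose window holds part of the island shared with Cdkn2a, had 9102 bp of H3K27me3 in control and 10502 bp after kd.

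**Figure D5:**
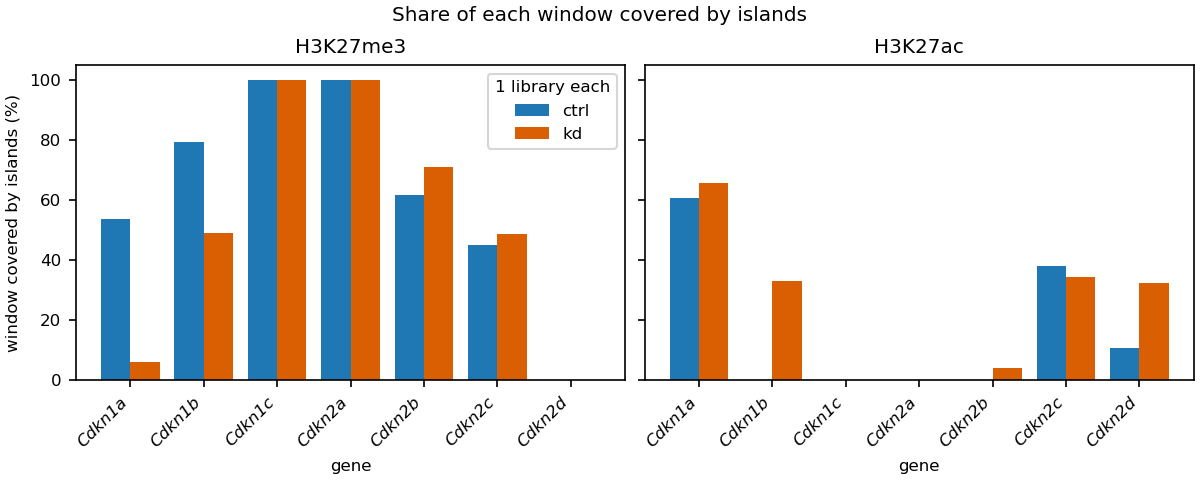
Percentage of each inhibitor gene's window covered by H3K27me3 islands (left) and H3K27ac islands (right) in control (blue) and after kd (orange), 1 library each. For H3K27me3 the kd bars are lower at Cdkn1a (53.7% to 6.08%) and Cdkn1b (79.4% to 49%) and at 100% in both conditions at Cdkn1c and Cdkn2a.

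RefSeq promoters were at hand for 6 of the 7 genes, Cdkn1c being without an entry, with 9 promoters in all. They held between 2 and 45 CpG. A GC box on either strand was present in 7 of 9, against 35.7% of all 32841 promoters of 300 bases. The E-box CACGTG was present in 1 of 9, at the second start of Cdkn2c, against 7.15%, and TATAAA in 0 of 9, against 13.6%. The promoter of Cdkn2d held 5 GC boxes, the most of the 9.

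The pattern of presence over the 10 lists was the same for Cdkn1c and Cdkn2a, with regions of each antibody except H3K27ac. Of the other protein-coding genes, 933 (4.25%) had this pattern, among them Ccnd2, a D-type cyclin, and the transcription factor Ets1. The pattern of Cdkn1a was found at 1096 others (5%), with Ccne1, E2f3 and E2f5 of the pathway, and that of Cdkn1b at 867 (3.95%), with Myc, Foxo1, E2f4 and E2f8. The pattern of Cdkn2d, without Polycomb regions, was the most common, at 3020 others (13.8%). It was shared by 9 pathway genes: Cdk2, Ccnd3, Ccne2, Rbl2, E2f1, Mdm2, Skp2, Cks1b and Zbtb17. Cdkn2c shared its pattern with 644 others (2.94%) and Cdkn2b with 308 (1.4%), none of them in the pathway list.

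The 32 other genes of the pathway were Cdks and cyclins, the Rb family, E2F factors and regulators of the inhibitors. All 32 had Smarca4 and H3K4me3 in both conditions. No shares were taken over genes with windows as long as theirs. H3K27me3 was present at 20 in control and 15 after kd, or 62.5% and 46.9%, against 51.2% and 42.4% of protein-coding genes. It was present in control alone at 5 (Cdk4, Rbl1, Mdm4, Ets2 and Foxo3) and after kd alone at 0, against 12.4% and 3.57%. At Mdm4, an inhibitor of p53, 3 H3K27me3 islands in control had no counterpart in the kd list. Ezh2 was present at 6 and 8 pathway genes, or 18.8% and 25%, against 14.5% and 16.5% of protein-coding genes. Ccna2, the S-phase cyclin, had an Ezh2 peak in control alone, against 4.41% of protein-coding genes, and Rb1, E2f2 and E2f6 had 1 peak each after kd alone, against 6.43%.

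H3K27ac was present at 17 of the 32 pathway genes in control and 27 after kd, or 53.1% and 84.4%, against 41% and 57.6% of protein-coding genes. Of the 32, 10 had it after kd alone and 0 in control alone. The 10 were Cdk4, Cdk6 and Ccnd1, which the INK4 proteins act on or against, E2f4 and E2f8, and Trp53, Myc, Bmi1, Foxo1 and Foxo3. Of all protein-coding genes, 20.4% had H3K27ac after kd alone. Cdk4, a target of the INK4 inhibitors, had 1 H3K27me3 island in control and 0 after kd, and 0 H3K27ac islands in control and 2 after kd. It had 1 Ezh2 peak in each condition. Bmi1, the Polycomb protein known for silencing Cdkn2a, was among the genes with H3K27ac after kd alone. Its window also held Ezh2 in both conditions (3 peaks in control and 4 after kd), and H3K27me3 (1 island in control and 2 after kd).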

How the data were processed

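The deposited files are peak lists, 1 per antibody and condition, made by the authors from reads aligned to mm10 (GRCm38). The processing notes name Trim Galore, SAMtools 1.9, Bowtie2 and MACS2. MACS2 peaks of Smarca4 and Ezh2 carry the authors' deposited score, and SICER islands of H3K27me3, H3K27ac and H3K4me3 carry the authors' deposited p-value, on which the lists had been filtered. The methods give input as the background, whereas labels of the input samples name IgG, so the background is not certain here. By the methods, Active Motif processed Smarca4 and H3K27me3 and the authors' laboratory the other antibodies, so antibody and laboratory cannot be told apart.

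Regions of chromosomes 1 to 19, X and Y entered and were overlapped (at least 1 bp) with genes of GENCODE M21, an earlier release than the study's, using Python 3.11.15 and numpy 2.4.6. Counting and overlaps were first tested on simulated lists. With 1 library per condition no test was made. The authors' differential calls were not used. Genes named are the 7 inhibitor genes, genes overlapped by their regions, and pathway genes with the pattern of an inhibitor gene or with Smarca4, Ezh2 or H3K27me3 in 1 condition alone. Cdk6, Ccnd1, Trp53 and Bmi1 were named after their values were seen. The members and lists were chosen with earlier results of these data known. The alternatives were a stricter threshold (a score from 50 on, and a -log10 p from 10 on for H3K27ac or from 20 on for H3K27me3 and H3K4me3), less than 50% repeat-masked bases, lists of equal length, other windows and other overlap rules.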

Additional observations from a re-analysis of the deposited data

How the results depend on the processing

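Of 170 values under alternatives, 145 stayed within 1.5 times the value reported and 25 did not, and the causes were not tested beyond the alternatives' own construction. Under the stricter threshold, Smarca4 had 5 kd-only regions, Ezh2 0 genes after kd alone, H3K27me3 1 gene in control alone (Cdkn1a, whose kd island lies just short of that threshold), H3K27ac 1 gene after kd alone (Cdkn2b), 1 ctrl-only and 2 kd-only islands, and H3K4me3 2 kd-only islands. With lists of equal length, H3K27ac had 1 gene after kd alone (Cdkn2b), 1 ctrl-only and 2 kd-only islands, and H3K4me3 2 ctrl-only islands. Within 1 kb of the TSS, Ezh2 had 0 genes after kd alone, H3K27me3 1 gene in control alone (Cdkn1a), and H3K27ac 3 genes after kd, 1 of them after kd alone (Cdkn1b). With at least 50% of a region inside the window, H3K27me3 was present at 3 genes after kd and at 1 in control alone (Cdkn2c), since long islands extend beyond the windows. With 50% of a region to be covered by the other condition, Ezh2 had 2 ctrl-only and 5 kd-only peaks, H3K27me3 3 ctrl-only islands, H3K27ac 1 ctrl-only island, and H3K4me3 2 ctrl-only and 3 kd-only islands. Without regions that were at least 50% repeat-masked, Ezh2 had 0 ctrl-only peaks. Under that rule, and within 1.5 times the values reported, H3K27ac was present at 2 genes in control and at 3 after kd alone (Cdkn1b, Cdkn2b and Cdkn2d). Among genes with windows of like length, 9.42% had Ezh2 in control. The alternatives were not applied to the pathway genes.

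No paired analysis was possible because there was 1 library per antibody and condition, and leaving out a replicate was not possible. Depth is unknown, so a region absent from a list was not called there, which does not show that the mark is absent. List length also differs between the conditions for each antibody, and the counts in the windows did not always follow it. The Smarca4 list held 79014 regions in control and 72339 after kd, while its windows held 31 and 34. For Ezh2 the lists held 6708 and 5364, and the windows 8 in each condition.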
